A study of Mus musculus with 72 samples.

Results

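Nuclear introns and exons were compared in mouse embryonic stem cells a few minutes after the cells were given 4-thiouridine (4sU). 4sU is a uridine analog that is built into new RNA and read after alkylation as a T-to-C conversion (T2C), so that new and old RNA can be told apart within a library. The comparison used 6 nuclear libraries, 2 of 15 min (replicates 1 and 2) and 4 of 20 min (replicates 1 to 4), out of 72 libraries in the series. All were E14TG2a cells, an established mouse embryonic stem cell line, grown in 2i + LIF medium that holds cells in a naive pluripotent state, labeled with 500 µM 4sU and separated into fractions with detergents. Replicates were passaged and labeled independently, and replicates 3 and 4 have no 15 min library. RNA was poly(A)-selected, so that an intron read comes from an RNA that already carries a poly(A) tail or an internal stretch of A. Libraries without 4sU were not analysed here and no background of conversions was subtracted.

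In each library, the share of new RNA in the introns of a gene was the number of T2C conversions over the number of sequenced T positions (T counts), divided by the conversion rate of that library, and the exon share was formed the same way. Genes entered with at least 2000 T counts in introns and 2000 in exons in each of the 6 libraries. This held for 8689 of the 51826 genes in the count files, or 31.6% of the 27463 genes with any T count in these libraries, and 8487 of them are protein-coding. At the minimum, *Zfp386* and *Fam161a* entered with 2001 T counts in the lowest library, with intron shares between 0.149 and 0.367 and between 0.0679 and 0.112 at 20 min. *Rassf7* and *Unc13a* stayed out with 1998 and 1995 T counts, and their intron shares at 20 min ranged from 0.174 to 0.655 and from 0.0699 to 0.194.

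Introns are removed from pre-mRNA by the spliceosome, mostly while the gene is still being transcribed. Intron reads in polyadenylated nuclear RNA can come from transcripts whose splicing was not complete when the tail was added. A part of such transcripts is spliced within minutes, and another part, said to carry detained introns, stays in the nucleus for longer. The share of new RNA in introns after a short pulse depends on how much of the unspliced pool was replaced during the pulse. It also depends on the distance to the 3′ end. The paper describes that in poly(A) RNA, sequence far from this end gains label later, since transcription of the rest must first be completed. No correction for this delay was made here, and fast and slow stand for high and low shares only. The exon share of the same library depends in the same way on spliced and unspliced nuclear RNA together.

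Between 17826062 and 52975732 reads per library fell on genes, the largest number in replicate 4 at 20 min. Conversion rates ranged from 2.20% to 3.56%. Introns held 28.5% to 30.2% of T counts in 5 of the 6 libraries and 40.0% in replicate 3 at 20 min. The 8 stem cell markers examined, among them *Pou5f1* and *Zfp42*, summed to between 4158 and 4931 CPM (reads scaled to a common library total) in the nuclear libraries. The 14 markers of other cell types summed to between 21.0 and 41.6, and *Neurog2*, *Col1a2* and *Postn* were at 0 in at least 1 library. Of 3 nuclear non-coding RNAs examined, *Malat1* ranged from 893 to 1927 CPM in the nucleus and from 54.2 to 167 in the cytosol. *Kcnq1ot1* ranged from 91.3 to 239 and from 1.24 to 4.59. *Neat1* ranged from 201 to 531 in the nucleus and from 16.0 to 274 in the cytosol, so that its ranges overlapped. A share can pass 1 where the RNA of a gene carries conversions more often than the library's rate, and the highest intron share at 20 min was 1.40.

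Introns held a larger share of new RNA than exons in every one of the 6 libraries. The median intron share over the 8689 genes was 0.147 and 0.129 at 15 min and 0.226, 0.282, 0.439 and 0.359 at 20 min, in the order of the replicates. The median exon share was 0.0302 and 0.0218 at 15 min and 0.0392, 0.0522, 0.110 and 0.0866 at 20 min. The lowest intron median lay above the highest exon median, so that the groups did not overlap. The intron median was 4.86-fold and 5.94-fold the exon median at 15 min and 5.77-fold, 5.40-fold, 3.99-fold and 4.15-fold at 20 min. An exact two-sided sign-flip test over the 6 libraries gave p = 0.03125 for a mean log2 ratio of 2.31, which is the smallest p that 6 libraries allow.

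**Figure D1:**
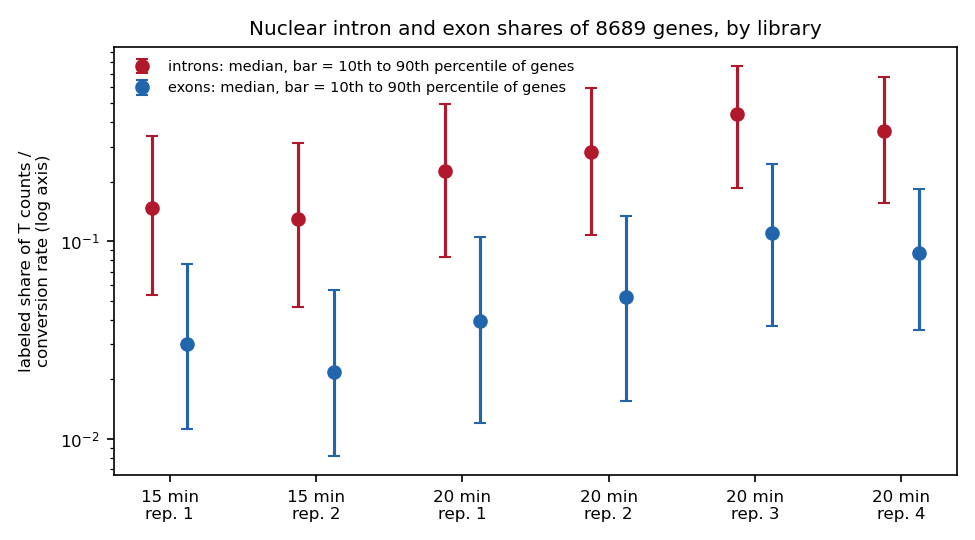
Median share of new RNA in introns (red) and exons (blue) over 8689 genes in each nuclear library, on a log axis, with bars from the 10th to the 90th percentile of genes. The intron medians run from 0.129 to 0.439 and all lie above the exon medians, which run from 0.0218 to 0.110.

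Gene by gene, the intron share was higher in 8323 of 8689 genes and lower in 16 (edgeR quasi-likelihood test with Benjamini-Hochberg adjustment, adjusted p under 0.05). These are 95.8% and 0.184% of the genes tested. The median fold was 4.55. Intron shares were above the exon share of the same library in all 6 libraries for 7995 genes, and for 4446 genes (51.2%) the lowest of the 6 intron values exceeded the highest of the 6 exon values. Within replicates 1 and 2 the counts were 8149 higher and 17 lower, and within replicates 3 and 4 they were 8062 and 14. With the exon nearest to the 3′ end in place of all exons, an alternative chosen after seeing the data, 7206 of 7818 genes were higher and 23 lower, and the median fold fell to 3.23. Genes differed in intron share much more than the medians of libraries did. At 20 min, 720 genes (8.29%) had over 0.5 of intron T counts from new RNA in each of the 4 libraries, and 89 (1.02%) had under 0.1 in each. The order of genes was similar in all libraries (Spearman's rho between 0.826 and 0.925 across genes for the 15 pairs of libraries, a description, since genes are not independent replicates).

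The 12 genes with the highest intron shares over the libraries of replicates 1 and 2 were *Mt2*, *Txnip*, *Sgk1*, *Tuba1b*, *Ftl1*, *Tuba1c*, *Hspa8*, *Actb*, *Rps29*, *Klf4*, *Mycn* and *Tuba1a*. They were chosen from replicates 1 and 2, so that only replicates 3 and 4 are values the choice did not use. There, all 12 had intron shares between 1.02 and 1.26, against a median over all genes of 0.439 and 0.359, and ranked between 1 and 24 of 8689. They are short genes but for *Sgk1*, with a median length of 3.90 kb against 28.3 kb for all genes tested, and a median of 4.5 exons in the longest transcript against 11.

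*Mt2* (ENSMUSG00000031762, chr8:94172664-94173568 in GRCm38, forward strand) encodes a metallothionein that binds zinc and copper. Its intron share was 0.930 and 0.995 at 15 min and 1.16, 1.40, 1.19 and 1.20 at 20 min, and its exon share was 0.0779 and 0.0492 at 15 min and 0.0789, 0.0877, 0.188 and 0.0951 at 20 min. The intron values lay above every exon value, and the intron share was 12.8-fold the exon share (log2 ratio 3.68, SD of the 6 library ratios 0.57). The choice by high intron share used libraries of this comparison. This fold and those of the other fast genes are thus a description, and no p-value is drawn from them. In replicates 3 and 4, which the choice did not use, *Mt2* had 1.19 and 1.20 in introns against 0.188 and 0.0951 in exons. *Ftl1*, the light chain of the iron store ferritin (chr7:45457944-45459884), had intron shares of 0.938 and 0.959 at 15 min and 1.09, 1.27, 1.18 and 1.17 at 20 min. Its exon shares were 0.0311 and 0.0199 at 15 min and 0.0303, 0.0357, 0.0735 and 0.0478 at 20 min, so that introns were 29.9-fold higher. *Rps29*, a protein of the small ribosomal subunit (chr12:69157722-69159186), had intron shares of 0.760 and 0.876 at 15 min and 1.14, 1.27, 1.17 and 1.06 at 20 min with exon shares of 0.0229 and 0.0139 at 15 min and 0.0243, 0.0198, 0.0640 and 0.0374 at 20 min. In *Ftl1* and *Rps29* every intron share at 20 min was above 1, while no exon share passed 0.0735.

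A second kind of gene among the 12 had new exons as well. *Txnip*, a thioredoxin-binding regulator of glucose uptake (chr3:96557957-96561883), had intron shares of 0.943 and 1.03 at 15 min and 1.10, 1.37, 1.26 and 1.20 at 20 min and exon shares of 0.370 and 0.277 at 15 min and 0.423, 0.534, 0.637 and 0.576 at 20 min. *Sgk1*, a kinase induced by serum and glucocorticoids (chr10:21882184-21999903), had exon shares of 0.274 and 0.219 at 15 min and 0.316, 0.410, 0.503 and 0.390 at 20 min beside intron shares of 1.01 and 1.04 at 15 min and 1.12, 1.26, 1.25 and 1.17 at 20 min. Transcripts of both are known to be short-lived. *Klf4*, a transcription factor of the naive state (chr4:55527143-55532466), had intron shares of 0.843 and 0.894 at 15 min and 1.07, 1.17, 1.02 and 1.19 at 20 min and exon shares of 0.216 and 0.161 at 15 min and 0.214, 0.266, 0.400 and 0.341 at 20 min. *Mycn*, a growth-promoting factor of the Myc family (chr12:12936093-12941914), had intron shares of 0.799 and 0.879 at 15 min and 1.11, 1.18, 1.11 and 1.07 at 20 min and exon shares of 0.213 and 0.168 at 15 min and 0.251, 0.296, 0.416 and 0.288 at 20 min. In these 4 genes the intron share was 2.52-fold to 4.01-fold the exon share, against 12.2-fold to 38.1-fold in the other 8.

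*Hspa8*, the constitutive Hsc70 chaperone (chr9:40800984-40810087), had 67640 or more intron T counts in every library and intron shares of 0.940 and 0.901 at 15 min and 1.08, 1.24, 1.23 and 1.24 at 20 min. *Actb*, cytoplasmic beta-actin (chr5:142903115-142906754), had intron shares of 0.776 and 1.02 at 15 min and 1.10, 1.20, 1.07 and 1.09 at 20 min and exon shares of 0.0570 and 0.0380 at 15 min and 0.0613, 0.0784, 0.183 and 0.125 at 20 min. The alpha-tubulin genes *Tuba1a*, *Tuba1b* and *Tuba1c* lie near each other on chromosome 15 and are nearly identical in coding sequence. Their mean intron shares at 20 min were 1.13 ± 0.132, 1.16 ± 0.0963 and 1.17 ± 0.0823 (SD, n = 4). Reads mapping to several places were kept by the aligner, and *Tuba1c* had 160.2 exon T counts per read counted on the gene against a median of 29.4 over all genes, so that the 3 genes may share reads and their values are uncertain one by one.

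The 12 genes with the lowest intron shares among the 5105 with 10000 or more intron T counts in every library were *Gm26561*, *Zfp969*, *Meg3*, *Zfp811*, *Mtcp1*, *Peak1*, *Taz*, *Dgat1*, *Tube1*, *Tctn1*, *Preb* and *Metap1d*. In replicates 3 and 4, which the choice did not use, their intron shares ran from 0.0218 to 0.139 and their ranks from 8449 to 8685 of 8689. The intron share was higher than the exon share in 4 of the 12 and lower in 2 (edgeR, adjusted p under 0.05), and no difference was called in the other 6. Of all genes tested, 95.8% were called higher and 0.184% lower. The choice by low intron share used libraries of this test, so that the counts for the 12 are a description. Introns of these 12 genes held a median of 65.6% of the T counts of the gene in the nucleus, against 37.4% for all genes and 6.76% for the 12 fastest. The minimum of 10000 intron T counts was asked of the slow genes alone and favors a high intron part. The contrast can thus come in part from the choice.

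*Dgat1*, the enzyme of the last step of triglyceride synthesis (ENSMUSG00000022555, chr15:76502015-76511953, reverse strand), had intron shares of 0.0228 and 0.0208 at 15 min and 0.0318, 0.0328, 0.0541 and 0.0545 at 20 min. Its exon shares were 0.00407 and 0.00996 at 15 min and 0.00457, 0.0133, 0.0291 and 0.0309 at 20 min. Introns were 2.44-fold higher (log2 ratio 1.29, SD 0.73 over 6 libraries) and were called higher by edgeR. The call was lost against the exon nearest to the 3′ end. The choice by low intron share used libraries of this test. Fold and call are thus a description, and no p-value is drawn from them. The exon shares of *Dgat1* rest on few conversions, 2 and 6 T2C counts at 15 min and 2, 10, 21 and 80 at 20 min. *Taz* (chrX:74281912-74290151), which by this position is tafazzin, a cardiolipin-remodeling enzyme of mitochondria, had intron shares of 0.0201 and 0.0182 at 15 min and 0.0379, 0.0311, 0.139 and 0.0822 at 20 min. *Preb*, an exchange factor of the secretory pathway (chr5:30950853-30960361), had intron shares of 0.0174 and 0.0319 at 15 min and 0.0276, 0.0329, 0.0869 and 0.0833 at 20 min. *Tctn1*, a protein of the ciliary transition zone (chr5:122237848-122264460), had intron shares of 0.0284 and 0.0283 at 15 min and 0.0255, 0.0267, 0.0519 and 0.0753 at 20 min. *Metap1d*, a mitochondrial methionine aminopeptidase (chr2:71453276-71525194), had intron shares of 0.0201 and 0.0228 at 15 min and 0.0329, 0.0366, 0.0811 and 0.0613 at 20 min. *Tube1*, epsilon-tubulin of the centriole (chr10:39133976-39152542), had intron shares of 0.00576 and 0.0247 at 15 min and 0.0267, 0.0514, 0.106 and 0.103 at 20 min. The 15 min shares rest on few intron conversions. They were 2 and 11 T2C counts in *Tube1*, 6 and 10 in *Taz*, 8 and 19 in *Preb* and 14 and 18 in *Tctn1*. *Dgat1* had 19 and 20 and *Metap1d* 37 and 46. The choice used the 15 min values, so no test of a rise is drawn from these 6 genes.

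*Meg3*, an imprinted nuclear non-coding RNA (chr12:109541001-109571726, forward strand), had low shares at every time. Its intron shares were 0.0236 and 0.0204 at 15 min and 0.0269, 0.0182, 0.0314 and 0.0271 at 20 min, and the later libraries read 0.0244 and 0.0147 at 30 min and 0.0310 and 0.0332 at 40 min. Its exon shares were 0.0189 and 0.0187 at 15 min and 0.0249, 0.0285, 0.0588 and 0.0353 at 20 min. No difference from the introns was called by edgeR, a description for a gene chosen on libraries of this test. The non-coding RNA *Gm26561* (chr17:70878078-71393284) and the pseudokinase gene *Peak1* (chr9:56201126-56418067) kept shares of 0.0297 and 0.0381 and of 0.0318 and 0.0479 at 40 min. These genes span 515 and 217 kb, and the part of the label delay far from the 3′ end in their low shares was not tested. *Gm26561* carried between 1087955 and 2524622 intron T counts per library but only 2 reads were counted on the gene over the 4 libraries of 20 min, and *Zfp969* had no such read with 5135 or more exon T counts per library. Their values may hold reads of other loci and are uncertain.

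**Figure D2:**
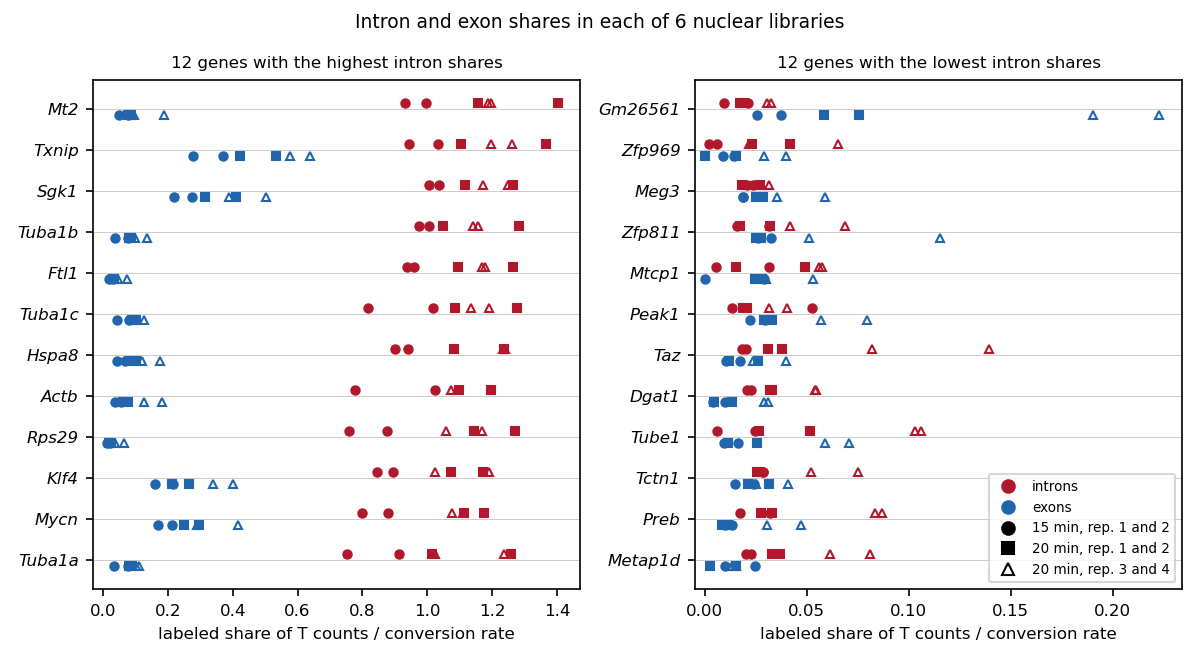
Share of new RNA in introns (red) and exons (blue) in each of the 6 libraries for the 12 genes with the highest (left) and the lowest (right) intron shares over replicates 1 and 2. The horizontal scales differ: fast introns lie between 0.752 and 1.40, slow introns between 0.00227 and 0.139. The value of 0.00227, in *Zfp969*, rests on 1 T2C count.

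The ends of introns that an annotated retained-intron transcript holds whole give examples of the sequences that are cut and joined. The 3′ most such intron is given for 3 fast and 3 slow genes, read from GENCODE M21 transcripts in GRCm38, as the last 3 exon bases and first 6 intron bases at the 5′ splice site and as the last 20 intron bases and first 3 exon bases at the 3′ splice site. Capitals mark the GT and AG ends of the intron.
Actb, intron chr5:142904783-142905236, 5′ splice site: cagGTcagt
Actb, 3′ splice site: ttatttatttttctctacAGatc
Hspa8, intron chr9:40804696-40804931, 5′ splice site: cagGTatgt
Hspa8, 3′ splice site: tttgatttcttttttctcAGact
Txnip, intron chr3:96560095-96560207, 5′ splice site: aagGTaagc
Txnip, 3′ splice site: acaccgttttctctcttcAGctc
Dgat1, intron chr15:76502885-76502958, 5′ splice site: gtgGTgagt
Dgat1, 3′ splice site: cattgtttcttgaccccaAGgaa
Preb, intron chr5:30958062-30958232, 5′ splice site: cagGTgtgc
Preb, 3′ splice site: gccttttgcctggcctccAGgtt
Taz, intron chrX:74288715-74288983, 5′ splice site: cagGTgggt
Taz, 3′ splice site: cccaattgcctgttttgaAGagg
Both kinds of gene have introns with GT and AG ends, as did 98.1% of the 6047 introns of this kind in 2688 genes. With the genes split into 5 equal groups (quintiles) by intron share over replicates 1 and 2, the intron opened with GTAAG or GTGAG on the transcribed strand in 48.4%, 48.6%, 49.4%, 52.4% and 52.5% of such introns from the lowest to the highest quintile. The median intron in these transcripts was 223 bases long in the lowest quintile and 325 bases in the highest.

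In 16 genes the intron share was lower than the exon share. *Cbx7*, a Polycomb chromobox protein (ENSMUSG00000053411, chr15:79915807-79971119, reverse strand), had intron shares of 0.0466 and 0.0535 at 15 min and 0.0622, 0.0969, 0.160 and 0.134 at 20 min and exon shares of 0.175 and 0.167 at 15 min and 0.184, 0.178, 0.200 and 0.172 at 20 min. The log2 ratio was -1.09 (SD 0.69 over 6 libraries, adjusted p = 1.1e-05 by edgeR), and it was not called within replicates 3 and 4 alone (log2 ratio -0.34, adjusted p = 0.098). Its exon shares lay between 0.167 and 0.200 at 15 and 20 min. At 40 min its introns were above its exons, at 0.340 and 0.386 against 0.255 and 0.245. In the cytosol the exon shares of *Cbx7* were 0.172 and 0.142 at 15 min and 0.180, 0.160, 0.112 and 0.131 at 20 min. Cytosolic exon medians over all genes ran from 0.0129 to 0.0263 in these libraries. No background was subtracted, and the part of conversions not made by 4sU was not tested. *Cbx6*, of the same family, was among the 16 with mean shares at 20 min of 0.117 ± 0.0439 in introns and 0.162 ± 0.0714 in exons (SD, n = 4). At 40 min its introns were above its exons too, at 0.478 and 0.444 against 0.336 and 0.350. It overlaps *Npcd*, another of the 16, on the same strand, and reads of the overlap cannot be assigned to 1 of the 2 genes. *Ankrd10*, an ankyrin repeat gene (chr8:11611583-11635757), had intron shares of 0.0470 and 0.0314 at 15 min and 0.0722, 0.0761, 0.112 and 0.0930 at 20 min and exon shares of 0.0786 and 0.0662 at 15 min and 0.124, 0.157, 0.235 and 0.172 at 20 min, lower in introns in 6 of 6 libraries and at 40 min (0.255 and 0.248 in introns against 0.313 and 0.297 in exons; log2 ratio -0.93, SD 0.15, adjusted p = 6.4e-07). *Prrt2*, a synaptic transmembrane protein (chr7:127017531-127021211), had no T2C conversion in introns in both 15 min libraries and in replicate 1 at 20 min, which allows shares of up to 0.0413, 0.0294 and 0.0456, and shares of 0.0361, 0.0123 and 0.0282 in replicates 2 to 4 at 20 min. It had between 2547 and 14928 intron T counts in a library, and the call was lost without replicate 1 and without replicate 3 (adjusted p = 0.082 and 0.075).

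The pseudogene *Gm6445*, with intron shares of 0.0881 and 0.0590 at 15 min and 0.0770, 0.0740, 0.135 and 0.199 at 20 min and exon shares of 0.343 and 0.278 at 15 min and 0.310, 0.306, 0.344 and 0.323 at 20 min, and the non-coding RNAs *Gm26561* and *Gm26853* complete the 6 named genes with the lowest log2 ratios. *Gm26853* had intron shares of 0.201 and 0.0523 at 15 min and 0.215, 0.222, 0.325 and 0.168 at 20 min and exon shares of 0.209 and 0.206 at 15 min and 0.403, 0.381, 0.640 and 0.399 at 20 min. It had 109 exon T counts per counted read against the median of 29.4, and the values of these 3 loci are uncertain, since reads may be shared with near-identical copies. The remaining called genes were *Gm47283*, *Dleu2*, *Rbak*, *Trim11*, *Peak1*, *Npcd*, *BC002059*, *Mafg* and *Snhg17*, named after their values were seen, with log2 ratios between -0.83 and -0.36. Exon shares of *Gm47283* were 0.802 and 0.657 at 15 min and 0.431 and 0.382 at 40 min. Lower exon shares after longer labeling leave the call for *Gm47283* uncertain, and their cause was not tested.

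At the other end, the ratio of intron to exon share was highest in *Ica1*, *Npl*, *Ndufb6*, *Rbms2*, *Babam2* and *Ndufc2*. *Ndufb6* and *Ndufc2* encode subunits of respiratory complex I. *Ndufb6* (chr4:40270591-40279421) had intron shares of 0.425 and 0.419 at 15 min and 0.672, 0.688, 0.831 and 0.739 at 20 min and exon shares of 0.0150 and 0.00726 at 15 min and 0.00923, 0.00775, 0.0255 and 0.0241 at 20 min. *Ndufc2* (chr7:97400003-97407802) had intron shares of 0.459 and 0.340 at 15 min and 0.576, 0.599, 1.17 and 0.717 at 20 min and exon shares of 0.00794 and 0.00962 at 15 min and 0.0127, 0.0213, 0.0144 and 0.0222 at 20 min. *Babam2*, a subunit of the BRCA1-A complex (chr5:31697684-32084962), had intron shares of 0.352 and 0.406 at 15 min and 0.460, 0.634, 0.679 and 0.741 at 20 min and exon shares of 0.0104 and 0.00839 at 15 min and 0.00790, 0.00503, 0.0169 and 0.0232 at 20 min. Introns were 45.2-fold, 41.0-fold and 43.8-fold higher in these 3 genes. The genes were chosen by this ratio over the same libraries, so that the folds restate the choice. They rest on few exon conversions, from 10 to 52 T2C counts per library in *Ndufb6*, 6 to 49 in *Ndufc2* and 3 to 55 in *Babam2*. In *Ica1*, *Npl* and *Rbms2* exon conversions were absent in between 1 and 4 libraries, so that no fold is given for them.

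Across gene lists, the proteins of the cytosolic ribosome had the fastest introns of the large groups. Of 80 ribosomal protein genes measured, 80 had a higher intron share, against 95.8% of all genes, and 75 were in the highest quintile of intron share. Here and in the lists that follow, the highest and the lowest gene of a list are those by the mean over replicates 1 and 2. Their median intron share was 0.470 at 15 min and 0.785 ± 0.0881 at 20 min (SD, n = 4), against 0.138 and 0.327 ± 0.0927 for all genes tested. Their median exon share was 0.0547 ± 0.0312, against 0.0720 ± 0.0323. These ribosomal protein genes are short, with a median length of 3.33 kb against 28.3 kb for all genes tested. The part of length in their shares was not tested. *Rps24* was the lowest, with 0.279 ± 0.0428 in introns at 20 min. *Rps29* stood highest. Proteins of the mitochondrial ribosome did not share this level. Of 64 measured, 64 were called higher but only 15 were in the highest quintile and 14 in the lowest. Their median at 20 min was 0.347 ± 0.101, at a median gene length of 8.45 kb. Among them, *Mrpl44* had 1.03 ± 0.207 and *Mrpl37* had 0.0915 ± 0.0376.

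Of 19 factors of the pluripotency network, 19 were called higher, near the 95.8% of all genes, and 12 were in the highest quintile. The median intron share was 0.386 at 15 min and 0.698 ± 0.124 at 20 min, and the exon share was 0.172 ± 0.0624, above that of all genes. *Nanog* had intron shares of 0.643 and 0.592 at 15 min and 0.835, 0.930, 1.07 and 1.07 at 20 min. *Klf5* had 1.05 ± 0.105 at 20 min and *Sall4* 0.918 ± 0.0764. *Esrrb* had intron shares of 0.357 and 0.352 at 15 min and 0.525, 0.661, 0.818 and 0.740 at 20 min over a gene of 161 kb. *Pou5f1*, at 4.75 kb the core factor Oct4, was lower, with 0.0919 and 0.155 at 15 min and 0.355, 0.493, 0.616 and 0.523 at 20 min in introns and 0.0405 ± 0.0231 in exons at 20 min. *Dppa4* was the lowest, with 0.120 ± 0.0495 in introns at 20 min. Of 30 immediate early and feedback genes with any T count, 5 were measured and all 5 were called higher, near the 95.8% of all genes. *Klf10* had 0.962 ± 0.0774 in introns and 0.417 ± 0.0588 in exons, *Spry2* had 0.773 ± 0.0755 and 0.370 ± 0.0924, and *Zfp36l1* had 0.876 ± 0.0535 and 0.389 ± 0.0957. *Axin2*, a feedback target of Wnt signaling, was called as well, with 0.297, 0.369, 1.05 and 0.687 in introns at 20 min, higher in replicates 3 and 4 than in 1 and 2.

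The SR proteins bind exons and recruit the spliceosome. Of 10 SR genes measured, 8 were called higher, against 95.8% of all genes. By quintile, 3 were in the lowest, 4 in the second, 3 in the fourth and none in the highest. Their median intron share was 0.0892 at 15 min and 0.229 ± 0.0866 at 20 min, below that of all genes, while their median exon share of 0.116 ± 0.0442 was above it. The lists were not tested against other genes. *Srsf10* had intron shares of 0.0400 and 0.0240 at 15 min and 0.0472, 0.0793, 0.131 and 0.107 at 20 min and exon shares of 0.0457 and 0.0327 at 15 min and 0.0600, 0.0812, 0.146 and 0.112 at 20 min (adjusted p = 0.14, edgeR). In *Srsf6* the shares at 20 min lay close together, 0.155 ± 0.0476 in introns and 0.158 ± 0.0546 in exons (adjusted p = 0.66). *Srsf2* and *Srsf3* were the highest of the list, with 0.422 ± 0.0699 and 0.429 ± 0.123 in introns. Of 9 *Clk*, *Tra2* and other transcripts known for detained introns, 9 were called higher, near the 95.8% of all genes. The median of these 9 was 0.278 ± 0.0752. They spread widely: *Tra2b* had 0.452 and 0.523 at 15 min and 0.787, 0.879, 1.02 and 0.916 at 20 min and *Tra2a* had 0.100 and 0.0598 at 15 min and 0.167, 0.133, 0.191 and 0.174 at 20 min. *Clk1* and *Clk4*, kinases that phosphorylate SR proteins, had 0.297 ± 0.0853 and 0.249 ± 0.0948. *Mat2a*, the S-adenosylmethionine synthetase, had 0.725 ± 0.142, and *Ogt*, the O-GlcNAc transferase, had 0.216 ± 0.0336.

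Host transcripts of small nucleolar RNAs varied in both shares. Of 11 measured, 9 were called higher and 1 lower, against 95.8% and 0.184% of all genes. Their medians at 20 min were 0.714 ± 0.0536 in introns and 0.494 ± 0.139 in exons. *Snhg8* was the highest, with 1.10 ± 0.0991 in introns and 0.624 ± 0.129 in exons, and *Snhg11* the lowest, with 0.181 ± 0.0781 and 0.0482 ± 0.00940. *Snhg12* had 0.675 and 0.615 at 15 min and 0.783, 0.963, 0.956 and 0.994 at 20 min in introns and 0.510 and 0.458 at 15 min and 0.685, 0.773, 0.843 and 0.766 at 20 min in exons. *Snhg15* had 0.712 ± 0.0438 in introns and 0.763 ± 0.175 in exons at 20 min, and its introns and exons were not told apart (adjusted p = 0.70, edgeR). *Snhg17* was the host gene with lower introns, at 0.367 ± 0.0852 against 0.499 ± 0.139 in exons. *Gas5* had 0.569 ± 0.0798 in introns and 0.0994 ± 0.0415 in exons.

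In the metabolic and housekeeping lists the counts of genes called higher were near the 95.8% of all genes, and the medians are the description. Of these lists, 15 of 15 glycolytic genes were called higher, with a median of 0.557 ± 0.160, from *Pfkp* at 0.0695 ± 0.0285 to *Gapdh* at 0.940 ± 0.0861. Of 75 genes of the respiratory chain and ATP synthase, 74 were called higher, 36 were in the highest quintile and the median was 0.480 ± 0.105. Their exon median of 0.0318 ± 0.0208 was the lowest of the 21 lists. *Cox8a* had 0.854 ± 0.100 in introns and 0.0386 ± 0.0269 in exons, and *Cox6b2* had 0.116 ± 0.0243 and 0.106 ± 0.0393. All 34 proteasome genes and all 60 translation factors measured were called higher, with medians of 0.461 ± 0.124 and 0.476 ± 0.132. *Psmb5* had 0.848 ± 0.0476 and *Psmd13* 0.191 ± 0.102 in introns. The translation factor *Eif1* had 0.930 ± 0.0419 in introns and 0.311 ± 0.0710 in exons, and *Eif2s3y* had 0.0790 ± 0.0354 in introns. All 24 genes of cholesterol synthesis and uptake were called higher, with a median of 0.418 ± 0.101, from *Tm7sf2* at 0.0673 ± 0.0301 to *Idi1* at 0.782 ± 0.117. Of 29 cyclins and mitotic regulators 28 were called higher, with a median of 0.524 ± 0.123, and *Ccna2* had 0.857 ± 0.165 against 0.119 ± 0.0521 for *Ccnt2*. All 16 p53 targets measured were called higher (median 0.524 ± 0.120), from *Aen* with 0.290 ± 0.122 to *Plk2* with 1.01 ± 0.0956.

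At or below the level of all genes were tRNA synthetases (34 of 35 called higher, median 0.312 ± 0.0884), Zfp zinc finger genes (183 of 220, 0.285 ± 0.0753), solute carriers (127 of 131, 0.261 ± 0.0717) and centrosome and cilium genes (50 of 51, 0.250 ± 0.0758). By lowest and highest gene, the intron shares at 20 min went from 0.106 ± 0.0651 in *Wars* to 0.584 ± 0.124 in *Kars*, from 0.0411 ± 0.0238 in *Slc6a7* to 0.873 ± 0.0877 in *Slc25a5*, and from 0.0978 ± 0.0759 in *Cep72* to 0.619 ± 0.156 in *Cep76*. The share of Zfp genes called higher was below the 95.8% of all genes. *Zfp35* had 0.950 ± 0.167, while 56 of the 220 were in the lowest quintile and 34 in the highest. Genes of the spliceosome and hnRNP proteins (53 of 54, 0.393 ± 0.110), of mRNA export (23 of 23, 0.393 ± 0.0897) and of histone methylation and remodeling (62 of 62, 0.398 ± 0.0930) lay between. *Snrpg*, a core protein of spliceosomal particles, had 0.843 ± 0.116 and *Prpf40b* 0.0509 ± 0.0141. The export factors *Nxt1* and *Thoc6* had 0.827 ± 0.109 and 0.0940 ± 0.0401. *Kdm5b*, an H3K4 demethylase, had 0.762 ± 0.115 and *Kmt5c*, an H4K20 methyltransferase, 0.0619 ± 0.0189.

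**Figure D3:**
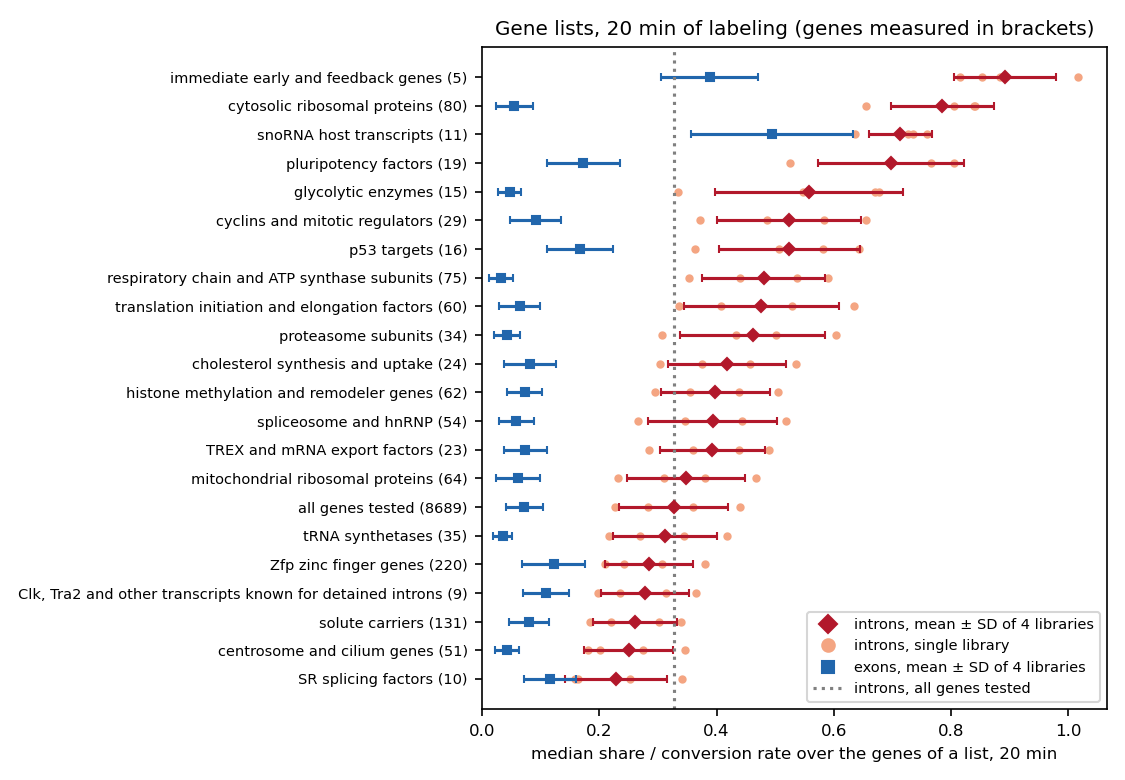
Median share of new RNA at 20 min over the genes of each list, for introns (diamonds, mean ± SD of 4 libraries, single libraries as light dots) and exons (squares, mean ± SD). Ribosomal proteins stand at 0.785 and SR splicing factors at 0.229 in introns, and the dotted line marks 0.327, the value of all genes tested.

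Intron share did not follow gene length in 1 direction. The delay of label in sequence far from the 3′ end was not corrected for in these values. At 20 min the medians of the 4 libraries averaged 0.433 ± 0.102 in 518 genes under 5 kb, 0.321 ± 0.0961 in 972 genes of 5 to 10 kb, 0.288 ± 0.0844 in 3048 genes of 10 to 30 kb, 0.320 ± 0.0891 in 2960 genes of 30 to 100 kb and 0.401 ± 0.110 in 1179 genes over 100 kb. Each of the 6 libraries of 15 and 20 min had its lowest median in the class of 10 to 30 kb, while each of the 4 nuclear libraries of 30 and 40 min had it in the class of 30 to 100 kb. At 15 min the longest class was highest in both replicates, with 0.205 and 0.199 against 0.187 and 0.171 in the shortest class. At 40 min the medians were 0.880 and 0.856 in the shortest class and 0.757 and 0.708 in the longest. Exon medians at 20 min lay within 0.0700 and 0.0730 in all 5 classes. Across genes the correlation of gene length with the mean intron share at 20 min was weak, with Spearman's rho of 0.0946 over 8677 annotated genes.

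**Figure D4:**
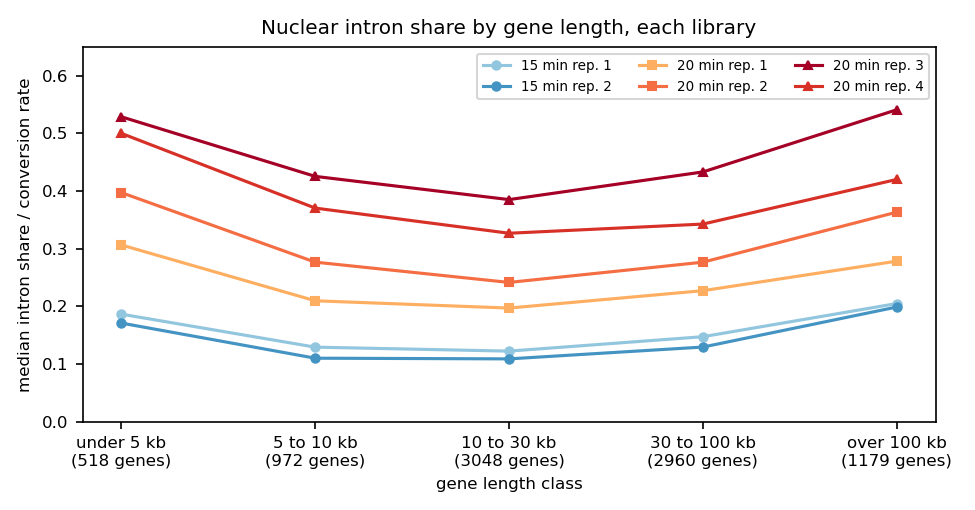
Median share of new RNA in introns for 5 classes of gene length, with 1 line for each of the 6 libraries. Each line is lowest at 10 to 30 kb, at 0.109 to 0.385.

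Other features of the genes were compared over the quintiles. From the lowest to the highest quintile of intron share, the median part of a gene's nuclear T counts that lay in introns at 20 min was 46.4%, 41.9%, 37.7%, 33.9% and 26.4%, a measure that shares its intron T counts with the intron share. In the cytosol of the same replicates it was 14.7%, 11.6%, 9.09%, 7.49% and 4.72%. The median log2 ratio of nuclear to cytosolic CPM was 0.72, 0.42, 0.17, 0.11 and -0.14, so that genes with old introns were more nuclear in their exon reads. A retained-intron transcript was annotated for 70.3%, 70.3%, 69.1%, 62.7% and 57.8% of the genes. Within genes of 10 to 30 kb this was 70.4% of 842 genes in the lowest quintile and 51.2% of 471 in the highest, but over 100 kb it was 60.3% of 63 and 67.0% of 336, in the opposite order. The median number of exons was 11 in the lowest quintile and 8 in the highest. Quintiles taken from replicates 1 and 2 were kept in replicates 3 and 4 by 80.3% of genes in the lowest quintile and 82.2% in the highest, and by 50.6% to 58.9% in the 3 between. Across genes, intron share and intron part of T counts had a Spearman's rho of -0.393.

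From 15 to 20 min intron shares rose in 6938 of 8689 genes (79.8%) and fell in none by edgeR (adjusted p under 0.05, with 7144 genes at an unadjusted p under 0.05, and 7193 higher and 0 lower by DESeq2). The median fold was 2.28. Replicates 3 and 4 have no 15 min library, and within replicates 1 and 2 alone 5257 genes rose and 5 fell, with a median fold of 1.79. With the replicate number as a block, 3500 genes rose and 1 fell. Leaving out replicate 1 or 2 leaves a single library at 15 min. Without replicate 1, 6544 genes rose with a median fold of 2.65, and without replicate 2 no gene was called by edgeR (2343 at an unadjusted p under 0.05) with a median fold of 2.26. When the libraries were rescaled so that most genes do not change (TMM), which removed a shift of 1.19 in the median log2 value, 89 genes rose and 176 fell relative to the rest. In the 12 fastest genes, chosen on libraries of this comparison and already between 0.752 and 1.04 at 15 min, the log2 differences lay between 0.22 and 0.50.

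At 20 min intron shares were higher in replicates 3 and 4 than in replicates 1 and 2 in 2299 of 8689 genes (26.5%), and lower in none by edgeR (3971 at an unadjusted p under 0.05, and 2224 higher and 0 lower by DESeq2). The median fold was 1.51. Without replicate 3 no gene was called (1053 at an unadjusted p under 0.05), without replicate 1 7 genes, without replicate 4 599 genes and without replicate 2 3041 higher and 1 lower. With TMM scaling 113 genes were higher and 141 lower. The conversion rates of replicates 3 and 4 were 3.37% and 3.56% against 2.58% and 3.25%. The neural marker *Pax6* stood at 17.1 and 18.8 CPM in replicates 3 and 4 and at 4.71 and 4.77 in replicates 1 and 2, and the other 13 markers summed to 21.4 and 22.8 against 16.3 and 17.4. The part of conversion rate and of these markers in the difference was not tested.

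The ratio of intron to exon share did not pass the test for any gene between 15 and 20 min (0 higher and 0 lower of 8689, edgeR, with 690 at an unadjusted p under 0.05). The median log2 difference of the ratio was -0.16. On simulated counts with the T counts of these libraries and 200 genes changed by 1 on the log2 scale, this test recovered 128. A difference of that size would thus be missed in a part of the genes. The simulation gave exons the higher rate of the introns and all genes the same spread. Recovery in the real data can therefore be lower and was not measured.

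Later nuclear libraries extended the course. The median intron share was 0.371 and 0.433 at 30 min (replicates 1 and 2) and 0.744 and 0.721 at 40 min (replicates 3 and 4), with exon medians of 0.0780 and 0.0988 and of 0.149 and 0.145. The lowest quintile stood at 0.159 and 0.193 at 30 min and at 0.449 and 0.445 at 40 min in introns, and the highest at 0.709 and 0.798 and at 0.987 and 0.962. Since the replicates at 30 and 40 min differ, the step between them cannot be told apart from the difference between replicates. *Tube1* had 0.533 and 0.369 at 40 min, *Preb* 0.303 and 0.286 and *Dgat1* 0.205 and 0.196, whereas the 12 fastest genes stood between 1.07 and 1.45.

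**Figure D5:**
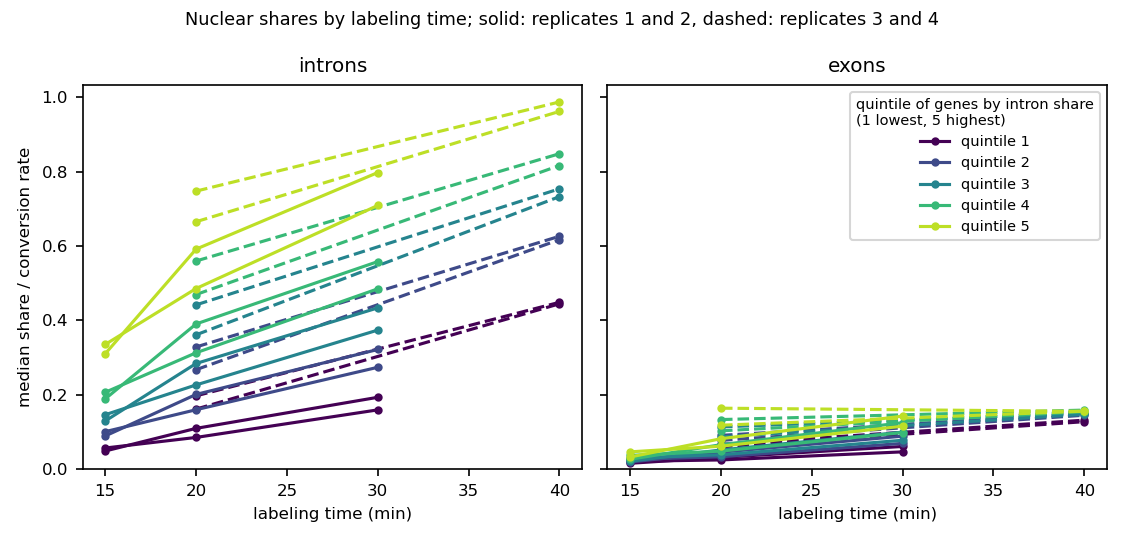
Median share of new RNA in nuclear introns (left) and exons (right) by labeling time, for quintiles of genes by intron share over the 15 and 20 min libraries of replicates 1 and 2. Each line is 1 replicate (solid for replicates 1 and 2, dashed for 3 and 4), and introns of the lowest quintile reach 0.449 and 0.445 at 40 min, against 0.987 and 0.962 in the highest quintile.

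In the cytosol, introns were a minor part of the T counts, between 8.70% and 11.1% at 20 min in replicates 1 and 2 and 3.66% and 4.76% in replicates 3 and 4. Over the same 8689 genes, the median intron share there at 20 min was 0.158 ± 0.0412 (SD, n = 4), against 0.327 ± 0.0927 in the nucleus. The minimum of T counts was asked of the nuclear libraries only. In the cytosol 493, 370, 1184 and 863 genes had an intron share of 0 in replicates 1 to 4, against 8, 1, 0 and 0 in the nucleus. The 2 medians thus rest on unlike depth. The median exon share was 0.0212 ± 0.00360.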

How the data were processed

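Per the labels and the study's methods, poly(A) RNA from detergent fractions was alkylated and sequenced as stranded paired-end libraries. The authors aligned reads with STAR 2.7.6, keeping reads with several places in the genome, to GRCm38 with GENCODE M14, once for exons and once for introns, the gaps between exons. The deposited files give, per gene, T2C counts, T counts and the conversion rate per library, the fraction of T positions converted within new RNA, which the authors estimated from a binomial mixture. Shares that the authors deposited as a ratio were recomputed here from those counts to within 2.4e-13. Read counts per gene came from HTSeq 0.11.1, and 40.5% to 48.8% of nuclear read counts were in deposited rows naming no gene, which were left out.

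Intron and exon T2C counts were compared in edgeR 4.0.16 (quasi-likelihood test, Benjamini-Hochberg adjustment over all 8689 genes), with log T counts as offset and library as a term. Comparisons of times and replicates used intron T2C counts with T counts times conversion rate as offset. Alternatives used limma 3.58.1, DESeq2 1.42.0, other T count minimums, other scalings and left-out replicates. The library pairs held no identical files (0 of 15). On simulated counts with 200 changed genes of 8689, the fits recovered 200 for introns against exons, 188 for 20 against 15 min, 182 for replicates 3 and 4 against 1 and 2 and 128 for the ratio over time. All genes were simulated with the same spread, and exons with the rate of introns. These numbers show that the fits run as intended and do not measure their power on the real counts.

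Named genes were the 12 highest and, from 10000 intron T counts, the 12 lowest mean intron shares over replicates 1 and 2, the 6 lowest log2 ratios among genes called lower, the 6 highest among genes called higher, and the highest and lowest gene of each list. Other list members were named after their values were seen. The members and lists were chosen with earlier results of these data known. Gene positions and transcripts came from GENCODE M21, in which 8677 of 8689 genes matched. PCR copies were not marked by molecular identifiers, so the limits given for a count of 0 (3 counts) cover counting error only.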

Additional observations from a re-analysis of the deposited data

Results flagged for a closer look

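Of 96 sets of 4 values at 20 min that were examined, 8 had a highest or lowest library whose gap to the next, as a part of the whole range, passed Dixon's 95% critical value for 4 samples. Chance alone marks about 1 in 20 sets.

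The intron share of *Mt2* was 1.16, 1.40, 1.19 and 1.20 in replicates 1 to 4, with replicate 2 apart at a gap of 0.838 of the range. Its exon share was 0.0789, 0.0877, 0.188 and 0.0951 (gap 0.852). The intron share of *Hspa8* was 1.08, 1.24, 1.23 and 1.24 (gap 0.952). The exon share of *Metap1d* was 0.0152, 0.00232, 0.0135 and 0.0153 (gap 0.866), on 5, 1, 9 and 25 T2C counts, that of *Gm26853* was 0.403, 0.381, 0.640 and 0.399 (gap 0.916) and that of *Npl* was 0, 0.00727, 0.0475 and 0.00550 (gap 0.847), on 0, 1, 4 and 2 T2C counts, so that single counts decide both *Metap1d* and *Npl*. Reads on genes were 17826062, 18455984, 18138975 and 52975732, with replicate 4 apart (gap 0.982). The intron part of T counts was 29.3%, 30.2%, 40.0% and 29.1%, with replicate 3 apart (gap 0.900).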

How the results depend on the processing

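Introns stayed above exons in most genes under every alternative run. The counts ran from 7206 of 7818 genes with the 3′ most exon to 11271 of 14222 with a minimum of 1 T count. The 11271 are a smaller part of the genes tested than the 8323 of 8689. Genes with lower introns numbered 27 with a minimum of 400 T counts, 36 with a minimum of 1 and 5 with no replicate block. For 20 against 15 min, 3500 rose and 1 fell with the replicate block, 89 rose and 176 fell with TMM scaling, and 0 to 6544 rose when a replicate was left out. The count that fell was 1 with a minimum of 400 T counts, 8 with a minimum of 1 and 5 within replicates 1 and 2. For replicates 3 and 4 against 1 and 2, leaving out a replicate gave 0 to 3041 higher and 0 to 1 lower, omitting the conversion rate gave 232 higher, TMM gave 113 higher and 141 lower, and a minimum of 400 T counts gave 1 lower. For the ratio over time, the replicate block gave 1 higher, a minimum of 400 T counts 1 lower, and leaving out a replicate 0 to 1 lower. The causes were not tested.

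The mean log2 ratio of medians was 2.21 to 2.37 with a replicate left out (exact p from 0.0625 to 0.125), 2.24 over replicate means (exact p = 0.125), 2.45 within replicates 1 and 2 (exact p = 0.125) and 2.02 within replicates 3 and 4 (exact p = 0.5), each the smallest p its number of libraries allows. The median intron share of immediate early genes was 0.986 with a minimum of 5000 T counts, and that of snoRNA hosts was 0.827 with 5000 and 0.773 with 400. The log2 ratio changed sign for *Zfp969* (-1.49 at 15 min alone, -0.076 by limma with a pseudocount of 2), *Meg3* (0.22 at 15 min alone), *Mtcp1* (-0.28 by limma with a pseudocount of 2) and *Peak1* (0.064 at 15 min alone). Without 281 genes of over 5 times the median exon T counts per read or no counted read, chosen after seeing the data, 8066 of 8408 were higher and 14 lower.

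The labels give shared replicate numbers only. Deviations of replicates 1 and 2 at 15 and 20 min had r = 0.0362 across genes, over 2 pairs, so the numbers were not shown to pair the samples. Poly(A) selection, a single cell line, shares without background subtraction and no correction for the delay of label far from the 3′ end limit all values. Why the ratio over time gave no call was not tested.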
